A study of Mus musculus with 6 samples.

Results

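Plasma cells are the antibody-secreting end stage of the B lineage, and 10 genes that mark them were followed in the bone marrow of *MxCDX2* and control mice. The genes were chosen by name, without use of measured values in the rule, though with earlier results of these data known. They are *Igha* and *Jchain*, whose products are secreted as IgA, the regulators *Prdm1* and *Xbp1*, the endoplasmic reticulum genes *Mzb1*, *Derl3* and *Fkbp11*, and the surface protein genes *Sdc1*, *Tnfrsf17* and *Tnfrsf13b*. All 10 were found by symbol among the 39179 genes of the deposited counts, and all 10 were among the 15980 genes kept by the filter on low counts. *MxCDX2* mice (n = 3) carried *RsCDX2* together with *Mx1Cre*. *RsCDX2* is a knockin of human *CDX2* at *Rosa26* that stays silent until Cre removes a stop sequence, and *Mx1Cre* is a transgene in which the interferon-inducible *Mx1* promoter drives Cre. The control group (n = 3) held littermates of different genotype, with *RsCDX2* alone in control 1, *Mx1Cre* alone in control 2 and neither allele in control 3. Every mouse, controls included, was given 3 intraperitoneal injections of poly(I:C) at 10 µg per g at the age of 3 months, and marrow RNA was taken 6 weeks after that. The *Mx1* promoter is not specific to one blood lineage, and poly(I:C), an interferon inducer, was given to both groups.

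When a B cell becomes a plasma cell, BLIMP-1 (encoded by *Prdm1*) turns down the B cell programme, and XBP1 enlarges the endoplasmic reticulum for the folding and export of antibody. The secreted immunoglobulin transcripts then become some of the most abundant messages of the cell. In the marrow, long-lived plasma cells depend on APRIL and BAFF, which bind BCMA (*Tnfrsf17*) and TACI (*Tnfrsf13b*), and on niche signals such as CXCL12 and IL-6. Several of these genes are also used elsewhere. XBP1 serves secretory and myeloid cells in general, syndecan-1 (*Sdc1*) is found on epithelia, on early B cells and on some macrophages, and TACI is found on B cells.

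Between 38646101 and 49899650 reads per mouse were counted on genes. Reads on the mouse gene *Cdx2* numbered 4, 0 and 0 in controls 1, 2 and 3, against 152, 155 and 183 in *MxCDX2* 1, 2 and 3. The libraries thus matched their labels as *MxCDX2* or control, whereas these reads do not check the genotypes within the control group. Whether they came from the human transgene or from the mouse gene was not tested. Markers of other cell types differed between the groups. All 6 monocyte markers were higher in *MxCDX2* mice, their summed normalized count ranging from 40230 to 63480 in control and from 279000 to 334800 in *MxCDX2* mice. All 6 erythroid markers were lower, with sums of 1326000 to 1679000 and of 40060 to 142500. Of 15 B cell identity genes, 10 were lower and none higher, with sums of 38590 to 89150 and of 13540 to 27630. In whole marrow, fewer cells of a type and less RNA per cell cannot be told apart.

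Of the 10 plasma cell genes, 1 (*Sdc1*) was called higher in *MxCDX2* mice and 0 were called lower, where a call meant an absolute log2 fold change above 1 with an adjusted p below 0.05 (quasi-likelihood test of edgeR, Benjamini-Hochberg method over all tested genes). Over all tested genes, 4.59% were called higher and 9.03% lower. An adjusted p below 0.05, whatever the fold change, was reached by 3 members (*Sdc1*, *Tnfrsf13b* and *Xbp1*), all higher in *MxCDX2* mice, beside 21.7% of all tested genes that passed on p, 9.91% as higher and 11.8% as lower. In these 3 genes every *MxCDX2* mouse lay above every control mouse, and such separation, in either direction, was seen in 42.1% of all tested genes. No member was lower at an unadjusted p below 0.05, and DESeq2 and limma-voom also called 1 member higher and 0 lower. The members divided evenly in direction, 5 with a log2 fold change above 0 and 5 below, and their median was -0.08, beside 0.002 over all tested genes. With 10 genes these counts are not a result about the members as a group.

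**Figure D1:**
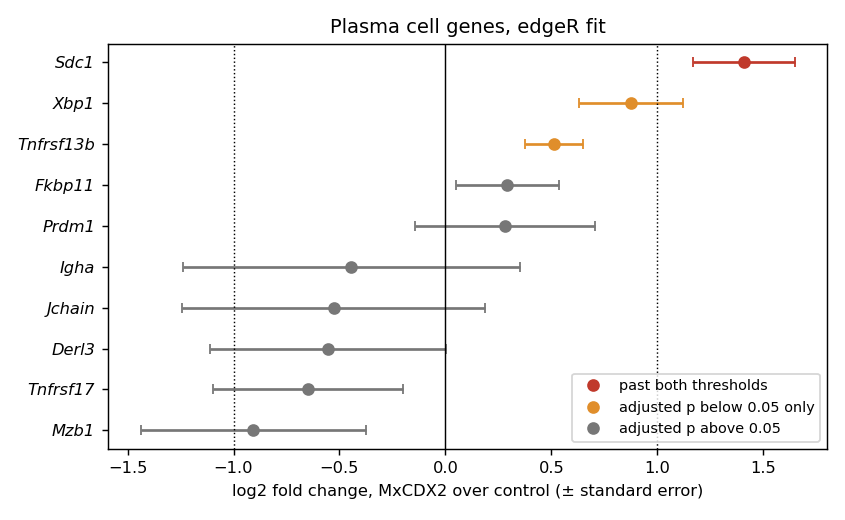
Log2 fold change of each plasma cell gene, *MxCDX2* over control (x axis, points with bars of 1 standard error, n = 3 mice in each group), ordered from the highest to the lowest. Only *Sdc1* (1.41) lies beyond the dotted fold threshold with an adjusted p below 0.05, while *Xbp1* (0.88) and *Tnfrsf13b* (0.51) pass on the adjusted p alone and the bars of *Jchain* and *Igha* span 0.

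*Igha* encodes the constant region of the IgA heavy chain and was the most abundant member. Its normalized counts, that is, counts scaled to a common library size, were 491092, 88843 and 214171 in controls 1, 2 and 3, against 372991, 64336 and 146427 in *MxCDX2* 1, 2 and 3. Both groups had a high, a low and an intermediate mouse, so the groups overlapped over most of their range. *Igha* alone took from 0.187% to 0.994% of all gene counts in control mice and from 0.151% to 0.829% in *MxCDX2* mice. The group means were 264700 ± 205800 (SD, n = 3) and 194580 ± 159900 (SD, n = 3), so that the log2 fold change was -0.44 (standard error, SE, 0.80, adjusted p = 0.733). Without control 1 the log2 fold change was 0.37 and without *MxCDX2* 1 it was -1.33, neither of them past the threshold on p. The 95% interval of the log2 fold change, from -2.34 to 1.45, covered both directions.

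*Jchain* encodes the small chain that joins IgA dimers and IgM pentamers before export. Counts of 89395, 19719 and 37130 were found in controls 1, 2 and 3, against 62370, 12359 and 26742 in *MxCDX2* 1, 2 and 3. The order of the mice was that of *Igha*, and the groups again overlapped. *Jchain* averaged 48748 ± 36260 in control and 33824 ± 25750 in *MxCDX2* mice (SD, n = 3 each), a log2 fold change of -0.53 (SE 0.72, adjusted p = 0.645). It was 0.26 without control 1 and -1.32 without *MxCDX2* 1, and its 95% interval ran from -2.23 to 1.18. The gene spans bases 88519809 to 88527891 of chromosome 5, minus strand (GRCm38). The 150 bases ahead of its start in RefSeq (GRCm38.p6, chr5:88527898-88528047, minus strand, written in the direction of transcription) are shown because *Jchain* is the reference for the patterns across mice given further on. Capitals mark CG pairs, of which there are 2, and 44.7% of the bases are G or C.
Jchain: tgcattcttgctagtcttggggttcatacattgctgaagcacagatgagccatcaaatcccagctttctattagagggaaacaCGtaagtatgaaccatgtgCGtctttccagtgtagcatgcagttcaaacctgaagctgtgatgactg

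The ratio of *Jchain* to *Igha* varied far less than either gene. There were 18.2, 22.2 and 17.3 *Jchain* counts per 100 *Igha* counts in controls 1, 2 and 3, against 16.7, 19.2 and 18.3 in *MxCDX2* 1, 2 and 3. Across the 6 mice the highest ratio was 1.33 times the lowest, and the groups overlapped (19.2 ± 2.59 against 18.1 ± 1.26, SD, n = 3 each, two-sided exact permutation test, p = 0.7, where 3 mice against 3 cannot give less than 0.10). Relative to *Igkc*, the kappa light chain constant gene, *Jchain* stood at 46.5, 37.1 and 42.4 per 100 counts in control and at 49.7, 48.4 and 45.1 in *MxCDX2* mice. The ranges overlapped (exact permutation p = 0.2). *Igha* stood at 255, 167 and 245 per 100 *Igkc* counts in control and at 297, 252 and 247 in *MxCDX2* mice, where the lowest *MxCDX2* mouse lay below the highest control mouse (exact permutation p = 0.4).

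Set against B cell transcripts, the levels of *Jchain* and *Igha* did not overlap between the groups. Per count of *Cd79a* and *Cd79b*, which encode the signalling chains of the B cell receptor, there were 5.09, 0.817 and 3.79 *Jchain* counts in controls 1, 2 and 3, against 8.82, 5.50 and 5.30 in *MxCDX2* 1, 2 and 3. All *MxCDX2* mice lay above all control mice, with the lowest at 5.30 close to the highest control at 5.09, and the exact permutation p was 0.10, the smallest that this design allows. For *Igha* the same ratio was 28.0, 3.68 and 21.9 in control and 52.7, 28.6 and 29.0 in *MxCDX2* mice, again without overlap (exact permutation p = 0.10). After Benjamini-Hochberg adjustment over the 25 ratios computed, the smallest adjusted value was 0.5, so none of these ratios passed. *Mzb1* per count of *Cd79a* and *Cd79b* was 0.151, 0.0884 and 0.181 in control and 0.309, 0.204 and 0.170 in *MxCDX2* mice, with overlap (exact permutation p = 0.2). *Cd79a* and *Cd79b* were themselves lower in *MxCDX2* mice, with log2 fold changes of -2.01 (adjusted p = 0.0486) and -1.71 (adjusted p = 0.0329), whereas *Jchain* and *Igha* did not pass.

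IgA made up most of the heavy chain constant counts in 5 of the 6 mice. The share of *Igha* among the counts of *Ighm*, 4 IgG genes, *Ighe* and *Igha* was 86.9%, 44.3% and 86.2% in controls 1, 2 and 3, against 88.8%, 59.3% and 74.8% in *MxCDX2* 1, 2 and 3. Control 2, the *Mx1Cre* mouse, had the lowest share, with *Ighm* at 41.9%, and the *MxCDX2* mouse with the fewest *Igha* counts came next, with *Ighm* at 31.8%. The mean share was 72.5% ± 24.4 in control and 74.3% ± 14.7 in *MxCDX2* mice (SD, n = 3 each, exact permutation p = 0.8), and the difference, *MxCDX2* minus control, was -12.2 percentage points without control 2 and -5.42 without *MxCDX2* 1. *Ighm* is also expressed by B cells before they become plasma cells, and the counts do not separate its membrane and secreted forms.

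**Figure D2:**
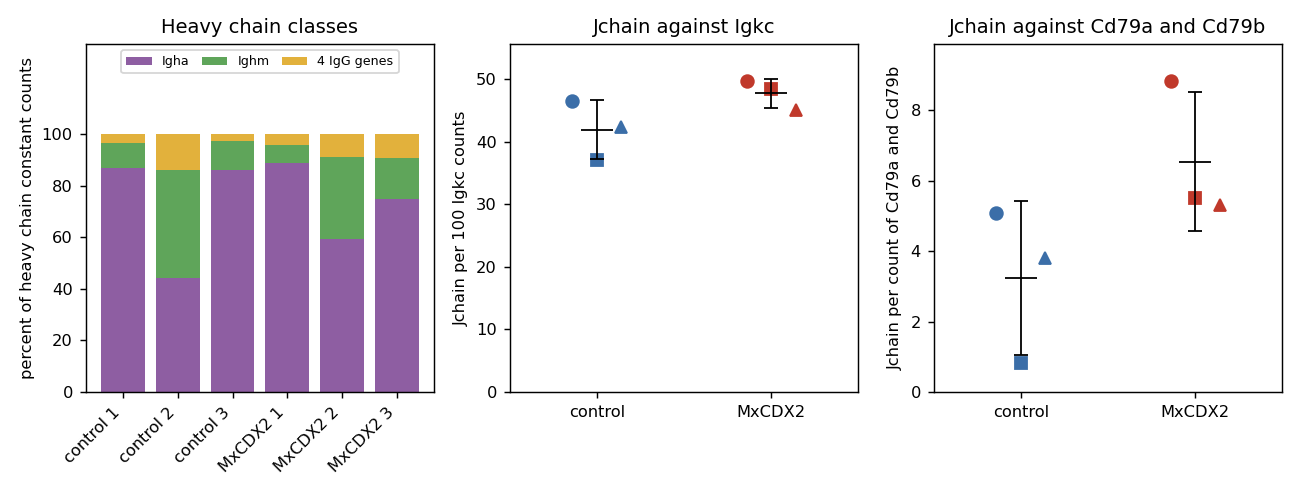
Left, share of heavy chain constant counts taken by *Igha*, *Ighm* and the 4 IgG genes in each mouse (stacked bars, percent). Middle and right, *Jchain* per 100 *Igkc* counts and per count of *Cd79a* and *Cd79b* by group (points, mice 1, 2 and 3 as circle, square and triangle, whose numbers do not pair mice across groups, with horizontal line and bar for mean and SD). The *Igkc* ratio overlaps between groups (37.1 to 46.5 and 45.1 to 49.7), and the *Cd79a* and *Cd79b* ratio does not (0.817 to 5.09 and 5.30 to 8.82).

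Among the other immunoglobulin constant genes, 8 of the 12 listed were matched to the files and tested. None was called higher and 2 were called lower, *Ighg3* with a log2 fold change of -2.50 (SE 0.41, adjusted p = 0.00855) and *Iglc2*, a lambda light chain gene, with -1.35 (SE 0.31, adjusted p = 0.0261). *Ighg3*, which encodes the heavy chain of IgG3, had 650, 649 and 291 normalized counts in control and 62.5, 96.0 and 123 in *MxCDX2* mice, with no overlap. *Igkc* (log2 fold change -0.66, adjusted p = 0.528) and *Ighm* (-0.80, adjusted p = 0.176) did not pass. The median log2 fold change of the 8 genes was -0.58. Reads shared by near-identical immunoglobulin segments may be split among them or lost in counting, so levels of single segments are uncertain.

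*Prdm1* encodes BLIMP-1, the repressor that ends the B cell programme. It had 704, 228 and 282 normalized counts in controls 1, 2 and 3, against 490, 527 and 457 in *MxCDX2* 1, 2 and 3. The *MxCDX2* mice lay close together, between the highest control mouse and the others. Means were 405 ± 261 and 492 ± 35.0 (SD, n = 3 each), with a log2 fold change of 0.28 (SE 0.43, adjusted p = 0.679). This value depended on control 1 and was 0.96 (adjusted p = 0.0456) without it, still short of the fold threshold, and the difference was -0.0028 without control 2.

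*Xbp1* encodes the transcription factor of the unfolded protein response that plasma cells need for secretion. Its normalized counts were 13257, 7907 and 7281 in controls 1, 2 and 3, against 19200, 15355 and 17679 in *MxCDX2* 1, 2 and 3. All *MxCDX2* mice were above all control mice, and control 1 was the highest of its group here as well. The means of 9482 ± 3284 and 17412 ± 1936 (SD, n = 3 each) gave a log2 fold change of 0.88 (SE 0.24, adjusted p = 0.0460), which passed on p and not on fold. With each mouse left out in turn, *Xbp1* stayed below an adjusted p of 0.05 in 1 of 6 cases, with values of 0.0102 to 0.128. Both thresholds were passed in that case, without control 1 (1.21, adjusted p = 0.0102), and with scaling by total counts alone (1.00, adjusted p = 0.0192). *Xbp1* counts include the unspliced and spliced transcript, which gene counts do not tell apart, so they hold no measure of XBP1 activation.

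Windows of 300 bases around the start of transcription, 250 before and 50 after it, were available from RefSeq for 8 of the 10 members, without *Mzb1* and *Igha*. Words of 3 plasma cell factors were searched on both strands. TGACGTGG, a word bound by XBP1, was in none of the 8 members and in 0.676% of all 32851 windows. GTGAAAG, a word bound by BLIMP-1, was in none of the 8 and in 4.24% of all windows, and the octamer ATGCAAAT of immunoglobulin promoters was in none of the 8 and in 1.74%. Since *MxCDX2* mice express CDX2, a pair of words bound by CDX proteins was searched too. TTTATTG was in 1 member, *Xbp1* (4.60% of all windows), and TTTATGG in 1 other, *Tnfrsf17* (2.75% of all windows). Both matches were on the strand opposite to the gene, so capitals mark the word's reverse complement in the stretches shown, which lie upstream of *Xbp1* (chr11:5520391-5520462, plus strand, word starting at -225 from the start of transcription) and *Tnfrsf17* (chr16:11313574-11313660, plus strand, word starting at -195) in GRCm38.p6. A match describes the letters of this window and is not a bound site, and a window without one lacks only those letters.
Xbp1: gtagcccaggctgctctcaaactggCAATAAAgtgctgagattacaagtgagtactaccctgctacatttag
Tnfrsf17: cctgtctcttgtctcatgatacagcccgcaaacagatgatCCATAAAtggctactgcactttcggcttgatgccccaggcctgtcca

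*Mzb1*, *Derl3* and *Fkbp11* act in the endoplasmic reticulum. *Mzb1*, a chaperone-associated protein of marginal zone B cells and plasma cells that assists immunoglobulin assembly, had normalized counts of 2659, 2133 and 1772 in controls 1, 2 and 3, against 2185, 458 and 859 in *MxCDX2* 1, 2 and 3. The control mice were close together, whereas *MxCDX2* 1 lay within the control range and the others far below it. Its means were 2188 ± 446 and 1167 ± 904 (SD, n = 3 each), a log2 fold change of -0.91 (SE 0.53, adjusted p = 0.272). Without *MxCDX2* 1 it was called lower, with a log2 fold change of -1.73 (adjusted p = 0.0236). Per 100 *Igkc* counts, *Mzb1* stood at 1.38, 4.01 and 2.02 in control and at 1.74, 1.79 and 1.45 in *MxCDX2* mice. Control 2 was highest in that ratio, and the groups overlapped (exact permutation p = 0.5). This mouse also had the highest sum of B cell identity genes (89150), and the part of B cells in the *Mzb1* counts was not tested. In the annotation *Mzb1* shares 695 exon bases with another gene on the same strand, which is not among the genes of the deposited counts. Whether reads of that gene were counted as *Mzb1* was not tested, so the level of *Mzb1* is uncertain to that extent.

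*Derl3*, a member of the Derlin family that helps to remove misfolded proteins from the endoplasmic reticulum, had 653, 353 and 318 normalized counts in controls 1, 2 and 3, against 553, 134 and 214 in *MxCDX2* 1, 2 and 3. Here too mouse 1 of each group was the highest and the ranges overlapped. The log2 fold change was -0.55 (SE 0.56, adjusted p = 0.528), and -1.34 without *MxCDX2* 1. *Fkbp11*, which encodes a prolyl isomerase of secretory cells, had 198, 160 and 152 counts in control and 175, 204 and 245 in *MxCDX2* mice. The highest *Fkbp11* counts were in *MxCDX2* 2 and 3, with overlap between the groups, and the log2 fold change was 0.29 (SE 0.24, adjusted p = 0.439).

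Values of the wider secretory machinery lay mostly above 0. Of 37 genes for translocation into the endoplasmic reticulum, folding, degradation and the stress sensors, 36 were tested, and 30 had a log2 fold change above 0, with a median of 0.51, beside 50.1% above 0 over all tested genes. By both thresholds 1 was called higher and 0 lower. With the adjusted p alone, 15 passed as higher and 1 (*Sec61g*) as lower, beside 9.91% and 11.8% of all tested genes. *Ern1*, which encodes IRE1α, the sensor that splices *Xbp1* mRNA, was the gene called. It had 2919, 3465 and 3839 normalized counts in control and 9539, 13100 and 9869 in *MxCDX2* mice, and the groups were apart (log2 fold change 1.67, SE 0.17, adjusted p = 0.00216). *Hspa5* (BiP, log2 fold change 0.55, adjusted p = 0.205) and *Calr* (calreticulin, 0.59, adjusted p = 0.0633), the most abundant of the list, did not pass. None of the members of this list is particular to plasma cells. The monocyte markers were higher in the same mice, and their part in these values was not tested.

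*Sdc1* encodes syndecan-1 (CD138), the surface proteoglycan by which plasma cells are sorted, and was the member called. Its normalized counts were 1624, 1120 and 1195 in controls 1, 2 and 3, against 2612, 4533 and 3305 in *MxCDX2* 1, 2 and 3. The lowest *MxCDX2* mouse was above the highest control mouse. *Sdc1* rose from 1313 ± 272 to 3484 ± 973 (SD, n = 3 each), 2.65 times the control mean, with a log2 fold change of 1.41 (SE 0.24, adjusted p = 0.00939). The call held when any one mouse was left out (log2 fold change 1.18 to 1.61, adjusted p 0.00953 to 0.0368) and under 8 other settings of scaling, filter and tool (1.40 to 1.54), though not when the fold change itself was tested against 1 on the log2 scale. Within *MxCDX2* mice, *Sdc1* was highest in mouse 2, which had the lowest *Jchain*, *Igha*, *Mzb1*, *Derl3* and *Tnfrsf17*. There were 1.82, 5.68 and 3.22 *Sdc1* counts per 100 *Jchain* counts in controls 1, 2 and 3, against 4.19, 36.7 and 12.4 in *MxCDX2* 1, 2 and 3, a range of 20.2 times over the 6 mice (exact permutation p = 0.2). The monocyte markers were higher in the same 3 mice, with *Csf1r*, the receptor gene of monocytes and macrophages, at 6624, 10080 and 9319 normalized counts in control and at 31520, 40190 and 38290 in *MxCDX2* mice, and their part in *Sdc1*, *Xbp1* and *Tnfrsf13b* was not tested. *Sdc1* spans bases 8771323 to 8793715 of chromosome 12, plus strand, in GENCODE. The 150 bases directly ahead of that position (GRCm38.p6, chr12:8771173-8771322, plus strand) are given because *Sdc1* was the member called, with CG pairs in capitals. The start in RefSeq lies further downstream, so that this stretch, unlike that of *Jchain*, does not reach up to it. They hold 6 CG pairs. Over the full windows of 300 bases, G and C made up 66.3% in *Sdc1* and 42.3% in *Jchain*, with a median of 52.7% over all 32851 windows.
Sdc1: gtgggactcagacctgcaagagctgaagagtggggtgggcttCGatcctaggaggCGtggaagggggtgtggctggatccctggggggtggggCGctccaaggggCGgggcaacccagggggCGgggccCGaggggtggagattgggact

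*Tnfrsf17* and *Tnfrsf13b* encode BCMA and TACI, related receptors for APRIL and BAFF. *Tnfrsf17*, the receptor more closely tied to plasma cells, had 111, 47.7 and 92.1 normalized counts in controls 1, 2 and 3, against 75.2, 33.3 and 51.4 in *MxCDX2* 1, 2 and 3. Mouse 2 was lowest in each group, as for *Jchain*, and the groups overlapped (log2 fold change -0.65, SE 0.45, adjusted p = 0.351). *Tnfrsf13b* had 2133, 2326 and 2572 counts in control and 2844, 3753 and 3432 in *MxCDX2* mice. The groups did not overlap, whereas the means of *Tnfrsf17* stood in the opposite order. TACI transcripts averaged 2343 ± 220 and 3343 ± 461 (SD, n = 3 each), 1.43 times the control mean, with a log2 fold change of 0.51 (SE 0.14, adjusted p = 0.0400). It passed on p and not on fold, and with each mouse left out in turn it stayed below an adjusted p of 0.05 in 2 of 6 cases. The difference between the fold changes of these receptors was not tested.

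Genes of the survival niche were split. Of 10 ligands, receptors and niche genes, all tested, 3 were called higher and 3 lower, with a median log2 fold change of 0.02. *Il6st*, which encodes the shared signal chain gp130 of the IL-6 receptor, was higher (log2 fold change 1.87, SE 0.20, adjusted p = 0.00231), with 4222, 3257 and 4961 normalized counts in control and 12570, 17070 and 15770 in *MxCDX2* mice. *Tnfrsf13c*, which encodes the BAFF receptor of B cells, was lower (-2.27, SE 0.59, adjusted p = 0.0372). *Cxcl12*, the chemokine that holds plasma cells in the marrow, fell by 1.81 on the log2 scale (SE 0.51, adjusted p = 0.0481). It had 24580, 11450 and 43920 normalized counts in controls 1, 2 and 3, against 8499, 4536 and 9723 in *MxCDX2* 1, 2 and 3. The lowest control mouse lay close above the highest *MxCDX2* mouse, and control 3 was far above the rest. The receptor gene *Cxcr4* had a log2 fold change of 0.56 (adjusted p = 0.170). *Cxcl12* comes from stromal cells. The 5 stromal and endothelial markers held 1 gene called lower and 0 higher, with a median log2 fold change of -1.24. Their sums were 5888 to 15410 in control and 5937 to 9351 in *MxCDX2* mice. *Pecam1*, the most abundant of the 5, weighed most in these sums and was the only 1 with a log2 fold change above 0 (0.28, adjusted p = 0.497). The part of stromal cells in the *Cxcl12* value was not tested. The ligand genes of the receptors above, *Tnfsf13* (APRIL, log2 fold change 0.79, adjusted p = 0.138) and *Tnfsf13b* (BAFF, -0.53, adjusted p = 0.295), did not pass and are named here outside the rule for named genes.

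**Figure D3:**
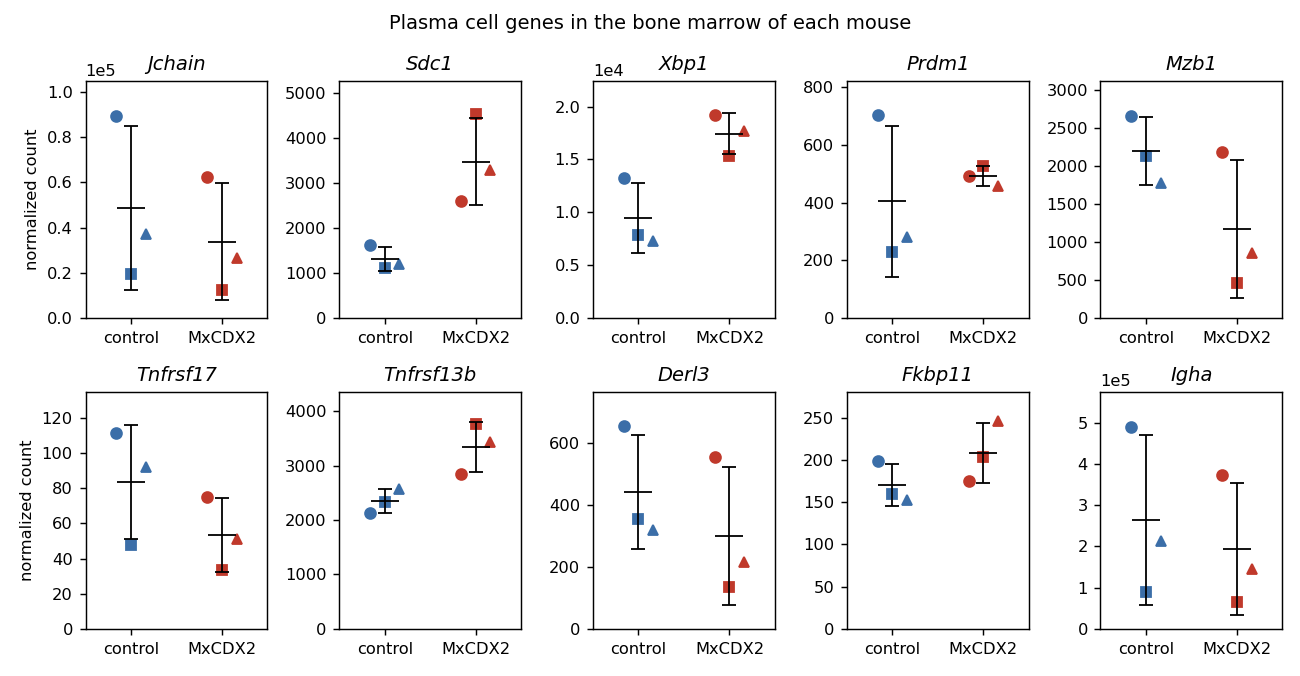
Normalized counts of the 10 genes in each mouse (y axis from 0, scale different in each panel, with its power of 10 at the top where used), control in blue and *MxCDX2* in red, n = 3 each. Mice 1, 2 and 3 are circle, square and triangle, numbers that do not pair mice across groups, and the line and bar are mean and SD. *Sdc1*, *Xbp1* and *Tnfrsf13b* do not overlap between groups, while in *Jchain*, *Igha* and *Tnfrsf17* both groups spread from mouse 1 down to mouse 2.

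Across the 6 mice the 10 genes did not share one pattern. Likeness to *Jchain* was measured as the root mean square difference, over the 6 mice, between the log2 levels of a gene and those of *Jchain*, each centred on its own mean. *Igha* was the nearest member (0.131), followed by *Derl3* (0.428), *Tnfrsf17* (0.477) and *Mzb1* (0.631). *Prdm1* (0.890), *Fkbp11* (1.02), *Xbp1* (1.03) and *Tnfrsf13b* (1.17) were farther, and *Sdc1* was the farthest member (1.41). The 5 nearest genes outside the list were all immunoglobulin genes, *Igkv10-96* (0.115), *Igkc* (0.140), *Igkv6-15* (0.164), *Igkv16-104* (0.180) and *Igkv17-121* (0.189). Of the 50 tested genes nearest to *Jchain*, 36 were immunoglobulin genes, which number 198 of the 15980 tested. These are 6 libraries that share the scaling, and the distances describe them without a test.

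**Figure D4:**
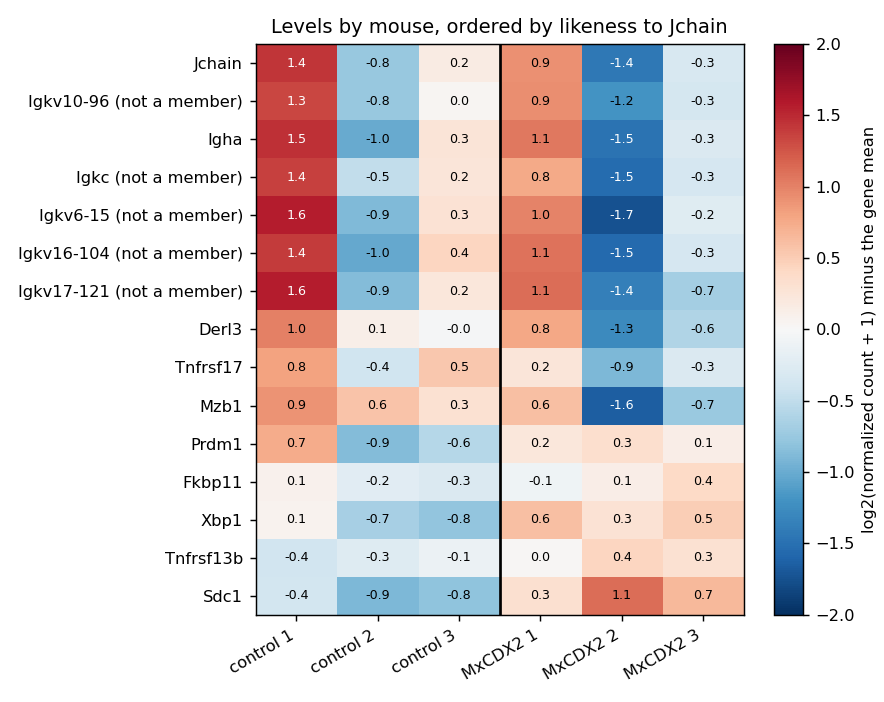
Level of each member, and of the 5 genes nearest to *Jchain*, in each mouse as log2(normalized count + 1) minus the gene's mean (colour and printed value), from the most like *Jchain* at the top to the least like at the bottom, with control mice left of the line. *Jchain*, *Igha*, *Tnfrsf17* and the 5 genes that are not members share a high control 1 and *MxCDX2* 1 and a low control 2 and *MxCDX2* 2. In *Derl3* and *Mzb1* the lowest control mouse is control 3 instead. *Xbp1*, *Tnfrsf13b* and *Sdc1* at the bottom divide by group.

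Several members varied widely between the mice of a group. In control mice the highest normalized count was 5.53 times the lowest for *Igha*, 4.53 for *Jchain*, 3.08 for *Prdm1*, 2.33 for *Tnfrsf17* and 2.05 for *Derl3*. In *MxCDX2* mice it was 5.80 for *Igha*, 5.05 for *Jchain*, 4.78 for *Mzb1*, 4.12 for *Derl3* and 2.26 for *Tnfrsf17*. Over 11982 genes whose mean normalized count was 100 or more, the median of this ratio was 1.33 in control and 1.23 in *MxCDX2* mice, and the 90th percentile was 2.54 and 2.07. *Tnfrsf13b* was the steadiest member in control mice (1.21) and *Prdm1* in *MxCDX2* mice (1.15). *Igha* and *Jchain* accordingly had the largest standard errors among the members (0.80 and 0.72 on the log2 scale), and the spread between mice, not the number of reads, limited their precision.

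Levels can be compared between genes only per length. Per kilobase of exon, *Igha* was the highest member, with 99210 ± 77150 normalized counts per kb in control and 72930 ± 59920 in *MxCDX2* mice (SD, n = 3 each, as in all values per kb). *Jchain* came next with 19370 ± 14410 and 13440 ± 10230, although its highest mouse was above the lowest mouse of *Igha* in both groups. *Xbp1* followed (2919 ± 1011 and 5361 ± 596), clear of *Jchain* in control mice and overlapping with it in *MxCDX2* mice. The order then was *Mzb1* (1801 ± 367) before *Tnfrsf13b* (826 ± 77.6) in control mice, without overlap, and *Tnfrsf13b* (1179 ± 163) before *Mzb1* (961 ± 744) in *MxCDX2* mice, with overlap. *Sdc1* (345 ± 71.4 and 915 ± 255) and *Derl3* (221 ± 92.4 and 151 ± 112) overlapped in control mice and were apart in *MxCDX2* mice. *Tnfrsf17* (103 ± 40.0 and 65.4 ± 25.8), *Prdm1* (72.6 ± 46.7 and 88.1 ± 6.28) and *Fkbp11* (62.9 ± 9.07 and 76.9 ± 13.1) were the lowest members and overlapped with each other in both groups. In *MxCDX2* mice *Sdc1* also overlapped with *Mzb1*, and *Derl3* with *Prdm1*.

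Other genes of plasma cells were called in both directions. Of 17 further genes of the plasma cell programme, all tested, 2 were called higher and 3 lower, with a median log2 fold change of -0.19. *Cd28*, a costimulatory receptor gene of T cells and long-lived plasma cells, was higher, with 272, 218 and 528 normalized counts in control and 4675, 8828 and 5601 in *MxCDX2* mice (log2 fold change 4.23, SE 0.43, adjusted p = 0.00214). Of the 6 T cell markers, 0 were called higher and 1 lower, with a median log2 fold change of -0.65. *Cd28* was highest in *MxCDX2* 2, the mouse of that group with the lowest *Jchain* and *Igha*. The monocyte markers were higher in the same 3 mice, and the part of any cell type in the *Cd28* value was not tested. *Tent5c*, which encodes a poly(A) polymerase that stabilizes immunoglobulin mRNA, was lower, with 38310, 41880 and 31140 counts in control and 6449, 1933 and 2917 in *MxCDX2* mice (log2 fold change -3.30, SE 0.46, adjusted p = 0.00489). *Tent5c* is also expressed by erythroid cells, whose 6 markers were all lower in the same mice, and their part in this value was not tested. *Edem1*, a lectin gene of endoplasmic reticulum degradation, was the other gene named by the rule (0.63, SE 0.19, adjusted p = 0.0593). The remaining genes called were *Creb3l2* (1.08), a transcription factor of the secretory programme and called higher, and *Ell2* (-2.03), the elongation factor that favours secreted immunoglobulin transcripts, and *Ikzf3* (-1.55), which encodes Aiolos, both called lower.

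The B cell identity genes, by comparison, differed in one direction. Of the 15 genes, 10 were called lower and 0 higher, and the median log2 fold change was -1.85. The largest were *Cr2* (-2.86, SE 0.45, adjusted p = 0.00710) and *Fcer2a* (-2.75, SE 0.41, adjusted p = 0.00578), receptors of mature B cells. *Cr2* had 693, 933 and 760 normalized counts in control and 190, 69.6 and 69.6 in *MxCDX2* mice, with no overlap. The 95% intervals of *Jchain* and *Igha* held both 0 and this median, so that neither could be told apart from the other in these genes. Plasmacytoid dendritic cells, which resemble plasma cells in shape, had 4 of 7 markers called lower and 0 higher (median -2.20), with sums of 9374 to 27180 in control and 10750 to 12700 in *MxCDX2* mice. *Siglech*, a surface marker of these cells, fell by 2.20 on the log2 scale (adjusted p = 0.0230). *Tcf4* and *Bst2*, which other cells use too and which were the most abundant of the list, were not called, with log2 fold changes of 0.82 (adjusted p = 0.0978) and -0.32 (adjusted p = 0.661).

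**Figure D5:**
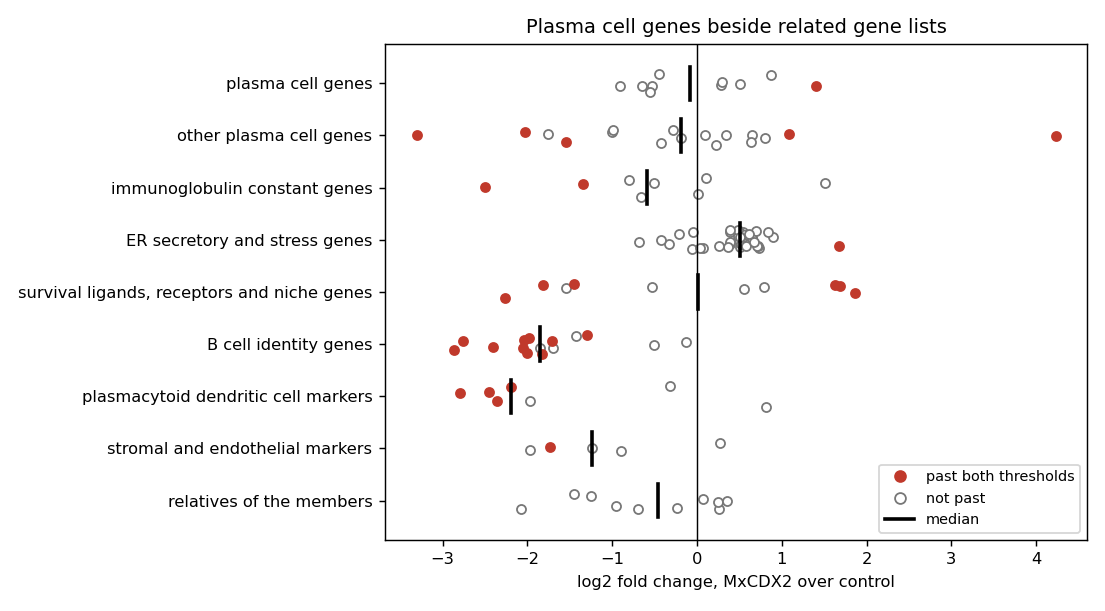
Log2 fold change, *MxCDX2* over control (x axis), of each tested gene in the plasma cell list and 8 related lists (y axis), with filled points past both thresholds, open points not past them and a black line at the median. The median is near 0 for the plasma cell genes (-0.08) and the other plasma cell genes (-0.19), above 0 for the endoplasmic reticulum genes (0.51) and at -1.85 for the B cell identity genes.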

How the data were processed

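Stranded mRNA libraries were made from the whole bone marrow of 6 littermates. According to the methods and the submitters' processing notes, the authors used bcl2fastq 2.17.1.14, aligned reads with STAR 2.5 to mouse genome GRCm38 and counted them with HTSeq 0.6.1. They deposited raw counts per Ensembl gene and mouse, without normalization. The strand setting of the counting is not given in the sources used here. Summary lines that name no gene were left out, among them reads on no feature (9.22% to 14.1% per mouse, of all lines of the files) and ambiguous reads (2.99% to 3.16%).

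Symbols, positions and exon lengths came from GENCODE M21 (GRCm38), which named 37607 of 39179 identifiers. *Ighd*, *Iglc1*, *Iglc3* and *Iglc4* were not matched and are not in any sum. Counts were fitted in R 4.3.3 with edgeR 4.0.16 (TMM, default filterByExpr, glmQLFit, glmQLFTest), with Benjamini-Hochberg adjustment over 15980 genes. Calls needed an adjusted p below 0.05 and a log2 fold change beyond 1 in either direction, the thresholds of the methods. Standard errors were derived from the F statistic. Normalized counts were counts brought to a common library size, the mean of those adjusted by TMM. Ratios within a mouse were compared by a two-sided exact permutation test (Python 3.11.15, scipy 1.17.1), which cannot go below 0.10 for 3 mice against 3, with Benjamini-Hochberg adjustment over 25 ratios. Ratios to 1 further gene are counted among these and are not reported here. Likeness used log2(normalized count + 1). Scripts were tested on simulated data. No pair of libraries of a group was as close as one library deposited in duplicate would be. DESeq2 1.42.0 and limma 3.58.1 (voom) were alternatives, with other scalings, filters and thresholds and with each mouse left out in turn.

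All 10 members are named. From each further list, up to 4 genes are named by rule, the 2 largest absolute log2 fold changes among called genes and the 2 highest mean counts, and a gene named beyond these was chosen after its values were seen. The members and lists were chosen with earlier results of these data known. The labels name no batch. Mouse numbers are those of the labels in *MxCDX2* mice and follow the order of deposit in control mice.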

Additional observations from a re-analysis of the deposited data

How the results depend on the processing

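Over all genes, 2177 were called. The count was 1043 at an adjusted p below 0.01, 611 when the fold change was tested against 1 on the log2 scale, and 1205 to 2406 with each mouse left out in turn, lowest without *MxCDX2* 3. The other settings of scaling, filter and tool gave counts within 1.5 times of 2177, with 2903 in DESeq2, the tool of the study's methods, and 2062 in limma-voom. Of the members, 1 was called. With scaling by total counts alone 2 were called, since *Xbp1* reached 1.00, and the median of all genes was then 0.12 on the log2 scale. When the fold change was tested against 1, 0 were called. Leaving out each mouse gave 1 to 2 called members, with 2 without control 1 (*Xbp1*) and without *MxCDX2* 1 (*Mzb1*). Of the 60 log2 fold changes of members with 1 mouse left out, 55 kept their sign and their call by both thresholds together, 3 changed sign (*Jchain* to 0.26 and *Igha* to 0.37 without control 1, *Prdm1* to -0.0028 without control 2) and 2 came to pass. By the adjusted p alone, *Xbp1* stayed below 0.05 in 1 of 6 cases, *Tnfrsf13b* in 2 of 6, and *Prdm1* fell below it without control 1 (0.0456), as did *Mzb1* without *MxCDX2* 1 (0.0236). The same values ran from -1.32 for *Jchain*, -1.33 for *Igha* and -0.0028 for *Prdm1* up to 0.26, 0.37 and 0.96. Of the 79 under other settings, 78 kept both and 1 came to pass. *Igha* has no value where the 10 most abundant genes are left out, being one of them. The difference in the share of *Igha* among heavy chain counts, 1.84 percentage points, ranged from -12.2 to 9.32 with each mouse left out, and was -12.2 without control 2 and -5.42 without *MxCDX2* 1. The differences in *Jchain*, *Igha* and *Mzb1* per *Igkc* count, and per count of *Cd79a* and *Cd79b*, kept their sign with each mouse left out and with the other denominators tried. The remaining ratios were not recomputed. The causes of these shifts were not tested. No paired analysis was possible because only the *MxCDX2* mice carry a mouse number in the labels.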

Other observations

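Genes related to the members by sequence were not called in either direction. Of 10 relatives, other syndecans, Derlins and FK506-binding proteins, all tested, 0 were called and the median log2 fold change was -0.46 (edgeR's quasi-likelihood test). *Sdc3*, the most abundant of the other syndecan genes, had 2471, 2826 and 8865 normalized counts in controls 1, 2 and 3, against 1775, 2649 and 2872 in *MxCDX2* 1, 2 and 3. Control 3, the wild-type mouse, was far above the rest, and the groups overlapped (log2 fold change -0.96, SE 0.51, adjusted p = 0.225). *Sdc4* had a log2 fold change of -1.45 (SE 0.52, adjusted p = 0.0930) and was chosen for mention after its value was seen, since its sign was opposite to that of *Sdc1*. *Derl1*, the most abundant Derlin gene, had a log2 fold change of 0.08 (SE 0.16, adjusted p = 0.772). Of 6 neutrophil markers, 2 were called lower and 0 higher, and of 6 T cell markers 1 was called lower.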
